A study of Glycine soja with 14 samples.

Results

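A group of 148 soybean probe sets with no gene name stood low on both arrays of leaves taken 0.5 h into sodium bicarbonate treatment and was back near its starting level at 1 h. A probe set is the group of short probes on an Affymetrix array that together report 1 transcript sequence. The 148 were found among the 35547 soybean probe sets that carried no gene symbol or only a LOC number, a placeholder for an unnamed gene, so they made up 0.416% of them. They included 71 probe sets with no symbol and 77 with a LOC number, which stood for 74 genes.

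The plants were wild soybean (Glycine soja) of the line G07256, the wild relative of the cultivated crop, grown in quarter-strength Hoagland's nutrient solution under 12 h of light. Seedlings 21 days old were moved to the same solution with 50 mM NaHCO3 at pH 8.5, and leaves were taken after 0.5, 1, 3, 6, 12 and 24 h. Leaves of the same age and line taken without bicarbonate at 0 h were the reference for all 6 later times, so treatment time and hours in the growth room run together. Each time had 2 independent biological replicates per the labels, each 1 array of leaf RNA pooled from 3 plants, 14 arrays in all.

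Sodium bicarbonate adds sodium ions and makes the root medium alkaline, which lowers the solubility of iron, phosphate and other nutrients around the root. Leaves of such plants are exposed to the stress through the root. On this type of array a gene is often covered by several probe sets made from different expressed sequence tags. In the probe set names the letter S or A after the cluster number records the sense or antisense orientation given to the design, which was not checked here against the probes' sequences.

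The soybean median of every array was brought to 56.4, and changes were taken on log2(value + 16), which understates the change of dim probe sets. A probe set belonged to the group if its mean at 0.5 h lay at least 1 below its 0 h mean on this scale and its 1 h mean lay within 0.5 of it. The change also had to be above -2 at 12 h and above -0.7 at 24 h, and both 0.5 h arrays had to lie below all 0 h and 1 h arrays. The values at 0, 0.5, 1, 12 and 24 h therefore chose the members and are given as a description with no test. Just inside the limit at 0.5 h were Gma.15618.2.S1_x_at (-1.0007), GmaAffx.92804.1.S1_at (-1.0008) and GmaAffx.51327.1.S1_at (-1.0045). Just outside it were Gma.9099.2.S1_a_at (-0.9984), Gma.15823.1.S1_at (-0.9951) and GmaAffx.74551.1.S1_at (-0.9932), which met every other limit.

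Some measures of the arrays themselves differed between times, and not at 0.5 h alone. The background, set on each array at the 95th percentile of the probe sets for Phytophthora sojae and Heterodera glycines, was 17.51 and 17.95 at 0.5 h against 25.26 and 25.95 at 0 h. At 12 h it was 14.82 and 18.28. The 18S ribosomal RNA signal was 62.5 and 25.4 at 0.5 h against 475 and 422 at 0 h. It was 141 and 136 at 1 h, and 1697 and 2227 at 6 h. The ratio of the 3-prime to the 5-prime actin control signal was 3.19 and 2.88 at 0.5 h, the lowest of the 14 arrays, against 5.72 and 3.27 at 0 h. The Pearson correlation between the 2 arrays of a time, across soybean probe sets, ran from 0.965 to 0.985. Of 17 probe sets for chlorophyll-binding proteins, photosystem subunits, rubisco activase and magnesium chelatase, which mark leaf tissue, 14 were above background on all arrays. The summed intensity of the 17 was 71557 to 71739 at 0.5 h against 73370 to 74616 at 0 h. Of 13 nodule and root probe sets, 2 were above background on all arrays and 4 on none, with sums of 213 to 234 at 0.5 h against 262 to 266 at 0 h. Of 18 seed probe sets, 4 were above background on all arrays and 9 on none, with sums of 2943 to 3960 at 0.5 h against 1850 to 2452 at 0 h. The part of the array measures and of the seed markers in the group's values was not tested.

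The median change of the 148 was -1.23 at 0.5 h, with a range of -2.57 to -1.001, while the median over all 37593 soybean probe sets was -0.02. Most of the 148 lay close to the limit, with 111 between -1.5 and -1 and 9 at or below -2. At 0 h their mean intensities ran from 20.1 to 2014 with a median of 128. At that time 146 were above background on both arrays. At 0.5 h 124 were above background on both arrays, 11 on 1 array and 13 on neither. For the 13 only a bound can be given, and the log2 changes printed for them are differences on the scale of the limits. GmaAffx.68741.1.A1_at (LOC100777108) was not above background on any 0 h array either and has no fold. The other 12 were lower at 0.5 h by at least 1.53-fold for GmaAffx.87825.1.S1_at, which was above background on 1 of its 2 0 h arrays, and by at least 5.27-fold for GmaAffx.38106.1.S1_at, the outermost values. On the 2 arrays of 0.5 h the median change of the group was -1.18 and -1.33, and 116 of the 148 were lower on the second array. In the same 7-time limma fit that serves the later comparisons, 125 of the 148 had a Benjamini-Hochberg adjusted p under 0.05 for 0.5 h against 0 h, where 1.82% of all soybean probe sets were lower and 0.718% higher. Nothing is read from that count, since this contrast chose the group. In leaf RNA of whole tissue, fewer cells holding a transcript and less of it per cell cannot be told apart.

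**Figure D1:**
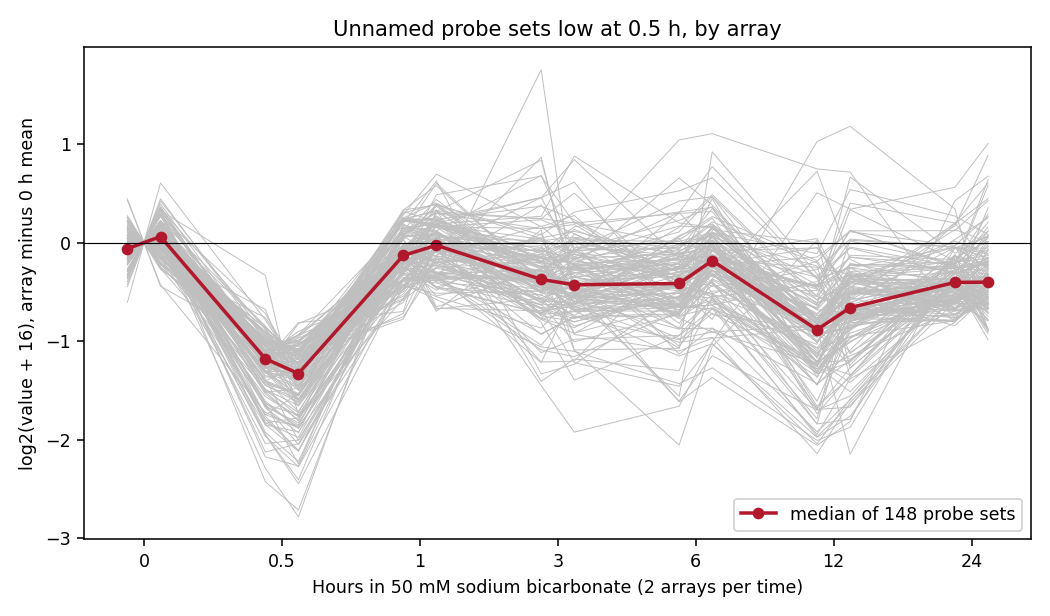
Change of each of the 148 probe sets from its own 0 h mean on log2(value + 16), by hours in bicarbonate with 2 arrays per time (grey lines), and their median per array (red). The median is -1.18 and -1.33 on the 0.5 h arrays, near 0 at 1 h, and -0.88 and -0.66 on the 12 h arrays.

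The gene with the lowest value was LOC100783845, measured by GmaAffx.91053.1.S1_at. Its scaled intensities were 684 and 883 at 0 h, 132 and 105 at 0.5 h, 815 and 701 at 1 h, 482 and 438 at 3 h, 549 and 701 at 6 h, 276 and 447 at 12 h, and 502 and 649 at 24 h. The 0.5 h arrays were the lowest of the 14 and the 12 h arrays overlapped those of 3 h. The change was -2.57 at 0.5 h, -0.04 at 1 h and -1.11 at 12 h.

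The second-lowest value was that of GmaAffx.89562.1.S1_at, which has no symbol. It read 276 and 286 at 0 h, 44.7 and 27.1 at 0.5 h, 322 and 283 at 1 h, 212 and 167 at 3 h, 118 and 130 at 6 h, 56.1 and 82.6 at 12 h, and 188 and 206 at 24 h. It was low a second time at 12 h, at -1.81 against -2.54 at 0.5 h. GmaAffx.90323.1.S1_at, also without a symbol, had no second low. Its readings were 157 and 217 at 0 h, 36.9 and 27.1 at 0.5 h, 201 and 208 at 1 h, 206 and 212 at 3 h, 132 and 164 at 6 h, 131 and 249 at 12 h, and 214 and 289 at 24 h. Its 0.5 h arrays were the lowest of the 14, and the arrays of every later time overlapped in range with those of 0 h.

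The remaining LOC probe sets with the lowest values ranged from -2.18 for LOC100305661 (GmaAffx.89191.1.S1_s_at) to -1.70 for LOC100500445 (GmaAffx.91862.1.S1_at). Between them were LOC100306054 at -2.08, LOC100777009 at -2.02, LOC100800784 at -1.98, LOC547605 at -1.88, LOC100499833 at -1.85, LOC100500331 at -1.83, LOC100137078 at -1.81 and LOC100306620 at -1.75. A second probe set of LOC100305661, GmaAffx.89191.1.S1_at, changed by -1.80. Among probe sets without a symbol the next values were -2.22 for GmaAffx.19917.1.A1_at, -2.20 for GmaAffx.14048.2.S1_at, -2.12 for GmaAffx.89821.1.S1_at, -1.95 for GmaAffx.91487.1.A1_at and -1.94 for GmaAffx.60550.2.S1_at. The group was not made of dim probe sets alone. GmaAffx.14048.2.S1_at read 509 and 356 at 0.5 h against 1974 and 2053 at 0 h, and Gma.8354.1.S1_at (LOC100500382) read 475 and 437 at 0.5 h against 1019 and 1055 at 0 h. Gma.18010.1.S1_a_at (LOC100527911) read 821 and 615 at 0.5 h against 1273 and 1741 at 0 h. Gma.17489.1.S1_at (LOC100804226) barely met the condition on arrays, with 982 and 354 at 0.5 h against 988 and 1557 at 0 h, and its replicates also spread widely at 3 and 6 h.

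A dip at 0.5 h alone describes few of the 148. The group's median change was -0.11 at 1 h, -0.38 at 3 h, -0.30 at 6 h, -0.74 at 12 h and -0.42 at 24 h, while the all-soybean median stayed between -0.04 and -0.01. At 12 h 142 of the 148 lay below their 0 h mean and 43 of them, or 29.1%, lay at or below -1, against 5.62% of all soybean probe sets. The limit of -2 at 12 h removed lower values, and that of -0.7 at 24 h likewise, so these counts describe what the limits let through. Only 18 of the 148 stayed within 0.5 of their 0 h mean at each of 3, 6, 12 and 24 h. For 126 the 0.5 h mean was the lowest of the 7 times, and for 97 the next lowest was 12 h. The range at 12 h ran from -1.94, in Gma.1378.1.A1_at (LOC100805603) and GmaAffx.81533.1.S1_at, to 1.10, and 6 of the 148 lay above 0. At 24 h 15 of the 148 lay above 0, among them GmaAffx.89801.1.A1_at of LOC100137078. It read 913 and 812 at 12 h and 950 and 1298 at 24 h, against 686 and 594 at 0 h.

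The comparison between 6 h and 3 h asked whether the 148 moved together later in the treatment. Its change uses only arrays that the choice of members did not. The SE and adjusted p pool the replicate spread over all 14 arrays, including those that chose the members. The comparison found no common movement of the 148. Their median change was 0.09, against 0.02 over all soybean probe sets. By limma with Benjamini-Hochberg adjustment over 37593 probe sets, 6 of the 148 (4.05%) were higher at 6 h, against a background of 2.03%, and 5 (3.38%) were lower, against 2.94%. At an unadjusted p under 0.05 there were 34 of 148 (23.0%), against 19.6% of all soybean probe sets.

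GmaAffx.87825.1.S1_at rose most, reading 73.4 and 77.5 at 6 h against 20.4 and 24.3 at 3 h, where 1 of the 2 arrays was not above background. The groups did not overlap, and the log2 change was 1.26 ± 0.20 (SE, limma adjusted p = 0.00575). GmaAffx.18733.1.A1_at read 176 and 200 at 6 h against 72.2 and 72.8 at 3 h. On the log2 scale it rose by 1.20 ± 0.17 (SE, limma adjusted p = 0.00279), and it had been low at 3 h as well as at 0.5 h. LOC100499833 (GmaAffx.90705.1.A1_s_at) read 761 and 1060 at 6 h against 472 and 412 at 3 h. That was a change of 1.00 ± 0.19 (SE, limma adjusted p = 0.0128), and at 6 h it stood above both of its 0 h arrays of 636 and 593. Smaller rises were 0.79 for GmaAffx.68191.2.S1_at and 0.78 for GmaAffx.89368.1.S1_s_at (LOC100305830).

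LOC547643 (GmaAffx.91238.1.S1_at) fell most, to 76.7 and 111 at 6 h against 195 and 219 at 3 h. The change was -1.04 ± 0.22 (SE, limma adjusted p = 0.0211), and the 3 h arrays lay above both 0 h arrays of 112 and 169. LOC100805603 (Gma.1378.1.A1_at) fell to 23.4 and 30.8 at 6 h against 54.9 and 77.3 at 3 h, by 0.92 on the log2 scale (limma adjusted p = 0.0187). The other falls were -0.94 for LOC100791908, -0.82 for LOC100306620 and -0.69 for LOC100803322 (GmaAffx.34241.1.A1_at), with limma adjusted p values of 0.046, 0.0223 and 0.0257 in that order. Both directions thus occurred inside the group. Every one of the 4 arrays mattered to these counts. With the second 6 h array left out 1 probe set was higher and 1 lower, and with the first 5 were higher and 0 lower. Leaving out the first 3 h array gave 3 higher and 3 lower, and leaving out the second gave 2 and 2. Of the 10 probe sets named here, only GmaAffx.18733.1.A1_at kept an adjusted p under 0.05 in all 16 alternatives, including each array left out.

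**Figure D2:**
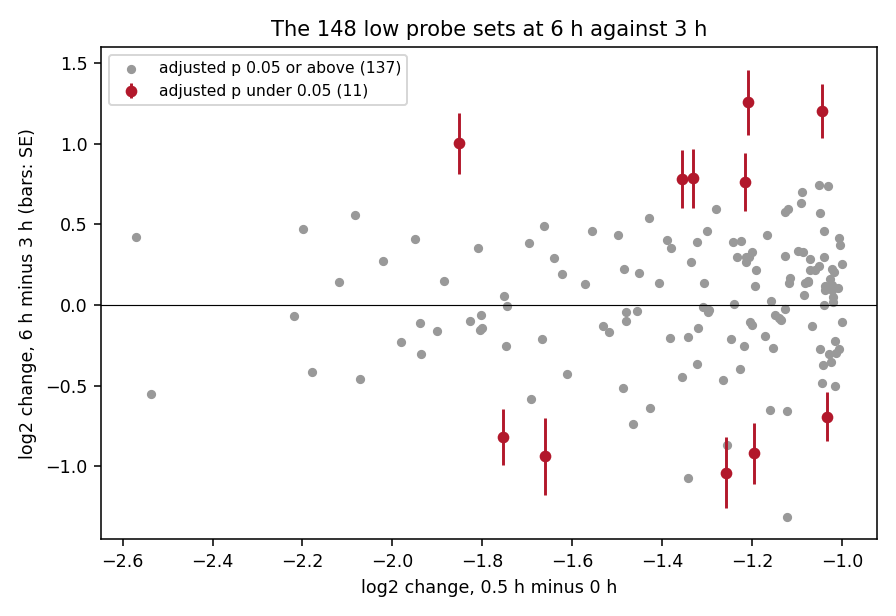
Change from 3 h to 6 h, as 6 h minus 3 h on log2(value + 16), against the change at 0.5 h for the 148 probe sets. Red points with SE bars have a limma adjusted p under 0.05, 6 of them above 0 and 5 below. Grey points are the rest, and the median of all 148 is 0.09.

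Against 0 h, whose arrays also chose the group and are shared by both comparisons, none of the 148 was called higher at 3 h by limma (background 0.95%) and 11 were called lower (7.43%, background 1.51%). At an unadjusted p under 0.05 there were 2 higher and 56 lower, together 39.2% of the 148 against 20.6% of all soybean probe sets. At 6 h 1 was called higher (background 4.16%) and 17 lower (11.5%, background 5.84%). The 0 h arrays were required to be high for a member to qualify, so these shares are not independent of the choice. Both counts of lower probe sets shrank with any array of the groups compared removed: 2 or 3 were then lower at 3 h, with 2 for either 0 h array or the first 3 h array. Removing the first 6 h array left 2 lower at 6 h, removing the second 6 h array or the first 0 h array left 8, and removing the second 0 h array left 11. The 1 higher at 6 h was lost with the second 6 h array removed and called with any other of these arrays removed.

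The largest fall at 3 h was that of GmaAffx.89801.1.A1_at, a member of LOC100137078. It read 223 and 157 at 3 h against 686 and 594 at 0 h, a change of -1.69 ± 0.25 (SE, limma adjusted p = 0.0178). It was still low at 6 h, with 191 and 309 (-1.33, limma adjusted p = 0.00667). The gene's second probe set in the group, GmaAffx.90395.1.A1_s_at, changed by -1.10 at 3 h (limma adjusted p = 0.0301). Both had been near their 0 h level at 1 h, at -0.10 and -0.08, and were low a second time at 3 h. The gene's 3 other probe sets above background on both 0 h arrays were not low at 3 h. Gma.14471.1.S1_s_at was at 0.41, GmaAffx.90395.1.S1_s_at at 0.19 and GmaAffx.48348.1.S1_s_at at 0.02.

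Other falls at 3 h were -1.21 for GmaAffx.18733.1.A1_at, -1.12 for Gma.13541.1.A1_at and -1.08 for GmaAffx.81533.1.S1_at. At 6 h the lowest change was that of LOC100805603 (Gma.1378.1.A1_at), with 23.4 and 30.8 against 106 and 104 at 0 h. This was -1.49 ± 0.19 (SE, limma adjusted p = 0.000675), and it read 13.0 and 18.3 at 12 h but 146 and 177 at 24 h, above both 0 h arrays. LOC100791908 (GmaAffx.93508.1.S1_at) changed by -1.38 at 6 h, GmaAffx.81533.1.S1_at by -1.35 and LOC100306038 by -1.24. The only rise against 0 h was that of GmaAffx.87825.1.S1_at, 1.07 ± 0.20 at 6 h (SE, limma adjusted p = 0.0071). Its 0.5 h arrays of 2.98 and 2.61 were not above background, and it was at least 1.53-fold lower there than at 0 h.

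Because many genes are measured by more than 1 probe set, the dip could be looked up in probe sets that the choice had not used. For the 77 LOC probe sets there were 107 further probe sets, in 50 of the 74 genes, that carried the same symbol and were not in the group. Their median change at 0.5 h was -0.09, against -0.02 over all soybean probe sets, and 78 (72.9%) lay within 0.5 of 0, against 83.8%. By limma with Benjamini-Hochberg adjustment 5 were lower (4.67%, background 1.82%) and 5 were higher (background 0.718%). A probe set that met the limits would itself have been a member, so the 107 exclude such values by construction, and they share the 0.5 h and 0 h arrays with the group. Leaving out the second 0.5 h array gave 0 lower and 0 higher, and leaving out the first gave 1 and 2. Leaving out the first 0 h array gave 4 and 3, and leaving out the second gave 4 and 1.

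The related probe sets were also described by cluster and letter, whose differences were not tested. Within the clusters of the 148 there were 16 further probe sets of the same letter, whose probes can overlap with a member's. Of these, 6 were called lower at 0.5 h and 0 higher (backgrounds 1.82% and 0.718%), 9 lay within 0.5 of 0 and 4 lay at or below -1, down to -2.03 in GmaAffx.1301.1.A1_x_at. There were 45 of the opposite letter, for 40 members. Their median change was 0.03, with 4 called lower and 2 higher, and 34 lay within 0.5 of 0. A further 79 carried the same LOC symbol but came from another cluster. Their median was -0.09, with 1 called lower and 3 higher, and 60 lay within 0.5 of 0. These limma calls use the adjusted p threshold of 0.05 as before, and none of the 45 of the opposite letter was itself in the group.

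**Figure D3:**
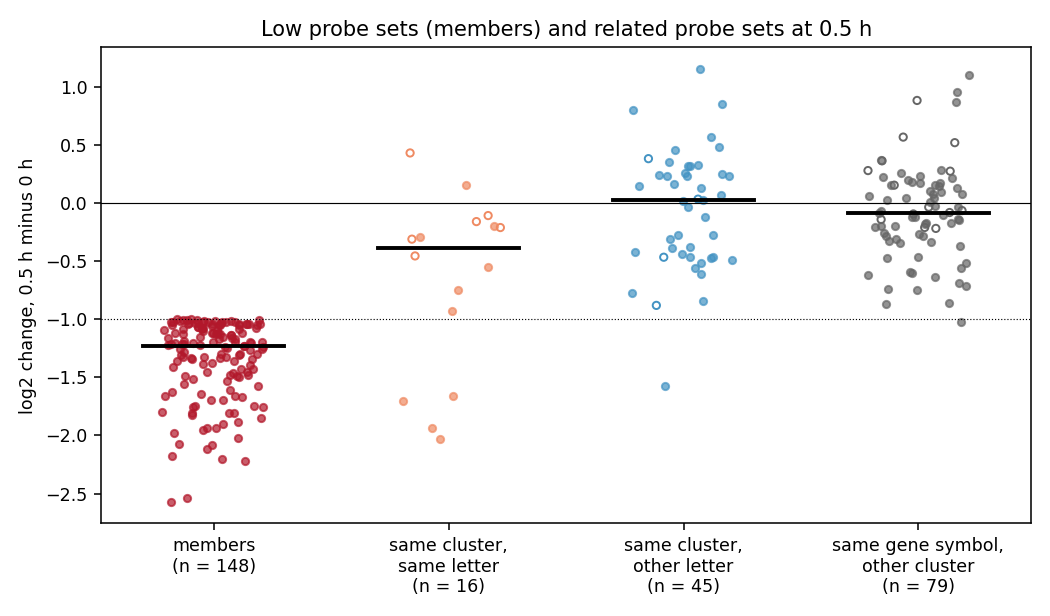
Change at 0.5 h against 0 h on log2(value + 16) for the 148 members, chosen to lie at or below -1 (dotted line), and for related probe sets outside the group by cluster and design letter. Open circles were not above background on both 0 h arrays (drawn so only for related probe sets), and bars mark medians, which are -0.38 for the same letter, 0.03 for the other letter and -0.09 for other clusters.

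In several clusters the 2 letters parted at 0.5 h. For LOC100777009 the member GmaAffx.89241.1.A1_at read 22.7 and 23.6 at 0.5 h against 142 and 143 at 0 h. The opposite-letter probe set GmaAffx.89241.1.S1_s_at read 1061 and 1237 at 0.5 h against 647 and 611 at 0 h, a change of 0.85 ± 0.16 (SE, limma adjusted p = 0.0208). The A probe set was thus down on both arrays while the S probe set was up on both, with no overlap between times in either.

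The member GmaAffx.90323.1.S1_at, described above at -2.07, had as its partner GmaAffx.90323.1.A1_s_at. The partner read 2457 and 2260 at 0.5 h against 2269 and 2354 at 0 h, a change of 0.03 ± 0.14 (SE, limma adjusted p = 0.934). For LOC100805603 the member Gma.1378.1.A1_at changed by -1.20, and the partner Gma.1378.1.S1_at read 1432 and 1409 at 0.5 h against 1399 and 919 at 0 h, a change of 0.32 ± 0.23 (SE, limma adjusted p = 0.472). The arrays of the 2 times were higher at 0.5 h in that partner, but by less than the spread at 0 h. Partners that fell with the member were GmaAffx.90967.1.A1_s_at (-1.58), GmaAffx.89806.1.A1_x_at of LOC100785356 (-0.84) and GmaAffx.89562.1.A1_at (-0.78). GmaAffx.1301.1.S1_at, also called lower, read 6.15 and 6.27 at 0.5 h against 26.0 and 23.8 at 0 h, above background on 1 of those 4 arrays. Partners that rose were GmaAffx.89881.1.S1_at of LOC100499871 (1.15) and that of LOC100777009.

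In genes covered by many probe sets, members also differed from other probe sets of the same gene, and not only by letter. Part of this difference is built in, since a further probe set that met the limits would itself be a member. LOC547605 had 9 further probe sets, 8 of them above background on both 0 h arrays. Its member GmaAffx.1301.2.A1_at read 62.5 and 58.8 at 0.5 h against 297 and 240 at 0 h. Gma.289.1.S1_s_at of the same gene read 10714 and 10472 at 0.5 h against 11696 and 11589 at 0 h, a change of -0.14 ± 0.12 (SE, limma adjusted p = 0.568), and the 8 ranged from -0.20 to 0.20. One of them, GmaAffx.1301.2.A2_at, has the cluster and letter of the member and changed by 0.16.

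For LOC100305661 the members were GmaAffx.89191.1.S1_s_at, with 238 and 169 at 0.5 h against 850 and 1091 at 0 h, and GmaAffx.89191.1.S1_at. The x_at probe set of the same cluster and letter changed by -1.66 ± 0.30 (SE, limma adjusted p = 0.0188), so the 3 S probe sets of that cluster were all low. Gma.17478.1.S1_s_at from another cluster of that gene read 1231 and 1039 at 0.5 h against 1374 and 1446 at 0 h, a change of -0.31 (limma adjusted p = 0.272). LOC100137078 had 2 members, at -1.81 and -1.64, while its probe set GmaAffx.48348.1.S1_s_at read 5690 and 5252 at 0.5 h against 5479 and 4374 at 0 h (0.16, limma adjusted p = 0.628).

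LOC100819200 was less clearly split. Its member GmaAffx.92227.1.S1_at changed by -1.38, and its probe sets Gma.11315.1.S1_at and GmaAffx.93614.1.S1_at changed by -0.69 and -0.72 without passing the test (limma adjusted p of 0.0876 and 0.121). LOC100818694 had its member at -1.52 and its other probe sets between -0.20 and 0.03. In LOC100500445 the member changed by -1.70 while GmaAffx.47469.1.S1_at rose to 83.3 and 149 at 0.5 h against 49.7 and 38.3 at 0 h (1.10, limma adjusted p = 0.0271). The brightest other probe set of that gene, GmaAffx.92697.1.S1_s_at, changed by -0.64 (limma adjusted p = 0.157). The remaining ones changed by -0.37, -0.34 and 0.07, also without passing the test.

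**Figure D4:**
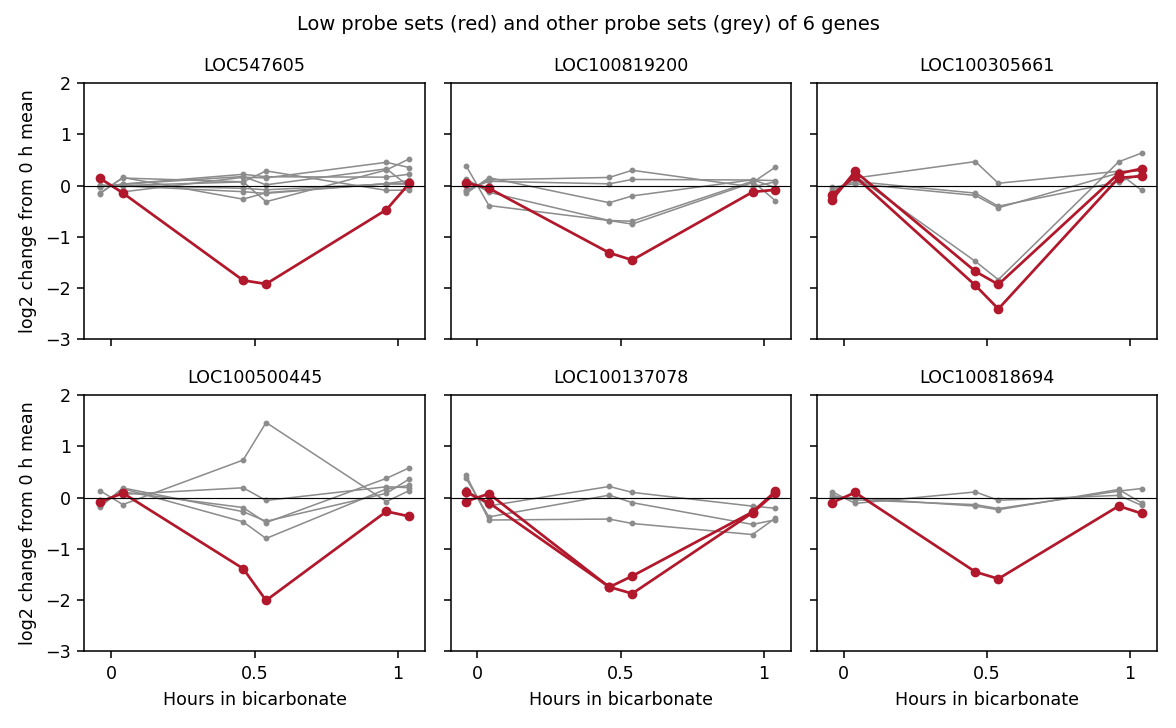
Change of each array from the probe set's own 0 h mean on log2(value + 16) at 0, 0.5 and 1 h, with 2 arrays per time, for the 6 genes whose symbol had the most further probe sets. Red lines are members of the group, which dip at 0.5 h, and grey lines are other probe sets of the gene above background on both 0 h arrays. Most grey lines stay near 0. Those farthest from it at 0.5 h are the x_at probe set of LOC100305661 (-1.66) and GmaAffx.47469.1.S1_at of LOC100500445 (1.10).

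The same limits were met outside the unnamed soybean probe sets. Among the unnamed, 1.10% of the probe sets with a LOC number and 0.249% of those without a symbol met them, and among soybean probe sets with a gene name 26 of 1676 (1.55%) did. Of the probe sets for Phytophthora sojae 5 of 15820 met them, and of those for Heterodera glycines 5 of 7530. Few of these were above background on both 0 h arrays, 368 and 167, of which 4 (1.09%) and 5 (2.99%) met the limits. The matching shares above background were 0.646% of the unnamed or LOC soybean probe sets and 2.24% of those with a gene name. Of the 227 control and ribosomal RNA probe sets 12 met them (5.29%), and all 12 were spike-in controls: bioB, bioC and bioD, bacterial biotin-synthesis genes whose labelled RNA is added to the hybridisation mix in the standard Affymetrix protocol. All 6 bioB probe sets and 12 of the 14 bioB, bioC and bioD probe sets met the limits. None of the 4 probe sets for cre, a further control of that mix supplied at a higher concentration, did, and none of the 24 for dap, lys, phe and thr.

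The 148 had medians of -1.18 and -1.33 on the 2 arrays of 0.5 h, beside -1.17 and -1.22 for the 14 bioB, bioC and bioD probe sets. On the 12 h arrays the 148 had -0.88 and -0.66, beside -0.88 and -0.26 for the spike-ins. The first 12 h array was the lower of its pair in both. At 24 h the 148 were at -0.40 on both arrays while the spike-ins were at 0.04 and 0.38, and at 1 h the 148 were at -0.13 and -0.03 while the spike-ins were at 0.00 and 0.21. The 4 cre probe sets had medians of -0.30 and -0.40 on the 0.5 h arrays. The mean bioB intensity was 237 and 230 at 0.5 h against 538 and 594 at 0 h. The median of 24 dap, lys, phe and thr probe sets was 0.59 and 0.76 at 0.5 h.

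When each array was instead scaled to its bioB and bioC signals, 6 probe sets met the limits in place of 148. The median of the 148 at 0.5 h was then -0.30, while that of all soybean probe sets was 0.95. The size of the change against 0 h thus depended on the scale chosen. This scaling was added after the data were seen. The part of hybridisation in the group's dip was not tested.

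**Figure D5:**
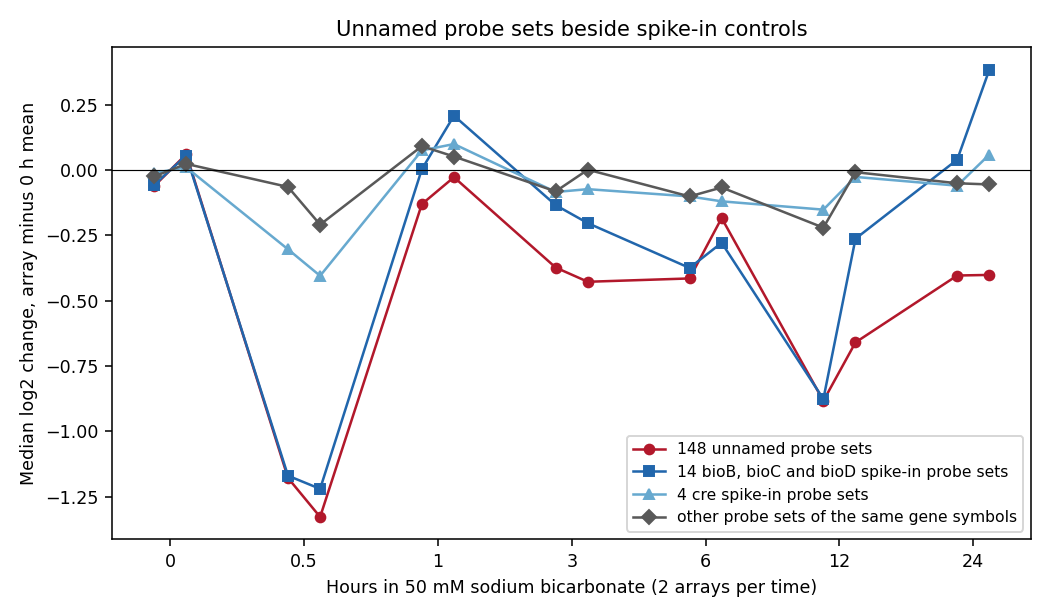
Median change from the 0 h mean on log2(value + 16) on each of the 14 arrays for the 148 members (red), 14 bioB, bioC and bioD spike-in probe sets (dark blue), 4 cre probe sets (light blue) and the 90 other probe sets of the members' genes above background on both 0 h arrays (grey). Members and bioB, bioC and bioD run close together at 0.5 h and on the first 12 h array and apart at 24 h.

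Probe sets with a gene name that met the limits give a named view of the pattern. They were chosen by the same values, so they too are described without a test. CYP2, a cyclophilin that helps proteins fold, read 40.3 and 36.5 at 0.5 h against 280 and 241 at 0 h (GmaAffx.90866.1.S1_at, -2.34). GAPDH, the glycolytic glyceraldehyde-3-phosphate dehydrogenase, read 48.0 and 42.2 at 0.5 h against 212 and 162 at 0 h on GmaAffx.93486.1.A1_at (-1.73). The opposite-letter probe set of that cluster, GmaAffx.93486.1.S1_at, read 1447 and 1296 at 0.5 h against 1490 and 1087 at 0 h, a change of 0.10 ± 0.20 (SE, limma adjusted p = 0.814).

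VSPA, a vegetative storage protein of soybean leaves, was at -1.84 on GmaAffx.89772.7.A1_at. Of its further probe sets, GmaAffx.89772.6.S1_s_at fell to 320 and 246 at 0.5 h against 1035 and 1153 at 0 h (-1.90, limma adjusted p = 0.000401). Its counterpart of the other letter, GmaAffx.89772.6.A1_s_at, changed by 0.15 (limma adjusted p = 0.797). Gma.5793.1.S1_s_at and GmaAffx.89772.17.S1_s_at of VSPA, also of letter S, changed by 0.11 and 0.21. LOXB1, a lipoxygenase, was at -1.74 on GmaAffx.89826.1.S1_at, while its further probe sets changed by -0.98 (GmaAffx.89726.1.S1_at, limma adjusted p = 0.0578), 0.18 (Gma.17610.2.S1_s_at, limma adjusted p = 0.497) and 0.96 (GmaAffx.89726.1.A1_s_at, limma adjusted p = 0.115). RPS6, a protein of the small ribosomal subunit, was at -1.70 on GmaAffx.91522.1.S1_at. The remaining named ones of the lowest 10 were 2 probe sets of MET2 at -2.78 and -1.67, 2 of HDL56 at -2.53 and -2.41, and SPCP1 at -1.77. The further probe sets of MET2 above background changed by 0.09, 0.23 and 1.11, and those of HDL56 by 0.22 and -0.97. Over all 26, which covered 22 symbols, the median was -1.51. Their 40 further probe sets above background had a median of 0.11, with 3 called lower (background 1.82%) and 1 higher (background 0.718%) by limma. Of the 40, 28 lay within 0.5 of 0 (70.0%, against 82.1% of soybean probe sets above background on both 0 h arrays). Named probe sets that met the limits are absent from the 40 by construction.

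The 148 also shared features of design that the limits did not use. Their names fell mostly in the last numbers of the GmaAffx series: 83 of 148 (56.1%) had a cluster number above 88000, against 7.19% of the unnamed soybean probe sets above background on both 0 h arrays. Among the 26 named probe sets 19 did, with no share over all named soybean probe sets taken for comparison. Of the 77 LOC members, 63 (81.8%) were designed from sequence records whose GenBank prefix is CF or CK, against 14.4% of the LOC probe sets above background on both 0 h arrays. The letter A stood in 28.4% of the names, against 16.4% of the unnamed probe sets above background. Name endings differed little, with _at in 85.1% of the 148 and in 83.5% of those. The number 88000 and the prefixes were picked after the values were seen, so these shares have no test. With members left out, 1542 unnamed or LOC probe sets above background had such numbers, and 75 of them (4.86%) lay at or below -1 at 0.5 h. Of the 20914 with other names 315 (1.51%) did, and the median changes were -0.033 and -0.027. With members included, whom the limits place there, the shares were 9.72% of 1625 and 1.8% of 20977.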

How the data were processed

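Leaf RNA of 14 samples was hybridised to 1-colour Affymetrix soybean arrays. The deposited table holds 1 linear intensity per probe set and array, from 0.92 to 12812; how the authors normalized and summarised it is not given in the sources used here. Gene symbols came from the array's public annotation, which is old, and no identifier matched the reference gene table (0 matches). Arrays were scaled to a soybean median of 56.4 and taken as log2(value + 16) of the deposited intensity. The limma package 3.58.1 in R 4.3.3 fitted 7 group means to 14 arrays (lmFit, eBayes; 7 residual and 4.24 prior degrees of freedom), two-sided, with Benjamini-Hochberg adjustment over 37593 soybean probe sets and a threshold of 0.05. It was tested on simulated data. The number of arrays limits the precision: the median SE was 0.19. Probe sets with several symbols (370) were left out of the group. The cap of 300 was not reached.

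Named probe sets were the 12 LOC-numbered and 8 unnamed members lowest at 0.5 h, the 5 of highest 0 h intensity, up to 5 rises and 5 falls per comparison without overlap of arrays, 6 genes with most probe sets, 3 on each side of the limit and 10 with names; individual related probe sets were chosen after their values were seen. Members and lists were chosen with earlier results of these data known. Alternatives covered scaling, pseudocount, dim probe sets, replicate block, groups in the fit, moderation, threshold and arrays left out. Replicate numbers do not pair the arrays.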

Additional observations from a re-analysis of the deposited data

How the results depend on the processing

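The number of probe sets that met the limits was 148, and 300 (the cap) with log2(value + 1), 58 with log2(value + 64), 6 with scaling to bioB and bioC, and 132 to 210 with 1 array left out. For 6 h against 3 h, the number higher was 3 with log2(value + 1), 2 with only the arrays compared, 2 at an adjusted p under 0.01 and 1 to 5 with 1 array left out; the number lower was 2, 0, 0 and 0 to 3 in the same order. For 3 h against 0 h, the number lower was 6 without scaling, 1 with log2(value + 1), 0 with only the arrays compared, 0 at 0.01, 6 without the 0.5 h arrays and 2 to 3 with 1 array left out. For 6 h against 0 h, the number higher was 2 without scaling, 3 with log2(value + 64), 2 without the 12 h arrays and 0 to 1 with 1 array left out; the number lower was 11 with log2(value + 1), 8 with only the arrays compared, 7 at 0.01 and 2 to 11 with 1 array left out. For the other probe sets of the same genes at 0.5 h, the number higher was 3 with log2(value + 1), 0 with only the arrays compared, 0 at 0.01, 3 without the 12 h arrays and 0 to 3 with 1 array left out; the number lower was 3 with quantile normalization, 3 with log2(value + 1), 0 with only the arrays compared, 1 at 0.01 and 0 to 4 with 1 array left out. The group's median change at 3 h was -0.26 with log2(value + 64), -0.22 with the spike-in scaling and -0.43 to -0.30 with 1 array left out. At 6 h it was 0.0161 with the spike-in scaling, the opposite sign, and -0.41 to -0.18 with 1 array left out. The median of all soybean probe sets at 6 h was 0.21 under the spike-in scaling, above that of the group. The cause of these shifts was not tested, beyond the fewer arrays or stricter threshold that some settings impose. For the 10 probe sets named from 6 h against 3 h, 107 of 160 alternatives kept the call, 53 lost it and 0 changed direction. Fits without the 0.5 h or 12 h arrays and the spike-in scaling were chosen after seeing the data. With the replicate number as a block the number higher at 6 h against 0 h was 2, and no other count moved by over 1.5 times; same-numbered arrays did not deviate together, with correlations of -0.22 to 0.23 over 21 pairs of times. With 2 arrays per time, small changes and changes of dim probe sets could not be resolved.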

Other observations

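With every limit mirrored, 71 unnamed or LOC-numbered soybean probe sets met them, high at 0.5 h and near their 0 h level at 1 h, against the 148 that were low; 3 and 6 h were left free in both. Of soybean probe sets with a gene name 10 met the mirrored limits, against 26 that were low, and of the control probe sets 0 did, against 12.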
